A study of Mus musculus with 6 samples.

Results

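The choroid plexus genes described here are 10 genes of the plexus epithelium, namely Ttr, Folr1, Kl, Clic6, Kcnj13, Kcne2, Enpp2, Ecrg4, Prlr and Sostdc1, chosen by symbol from the 19465 genes counted in every section. All 10 were found in each of the 6 sections, each under 1 identifier, and all 10 passed the filters of every main test given below. An alternative test of plexus spots, limited to genes also detected in 10% of all spots, left out Folr1, Kl, Kcnj13, Kcne2 and Sostdc1. The sections were formalin-fixed, paraffin-embedded coronal sections of the brain of male C57BL/6J mice that had received no treatment, measured with the Visium assay, which captures probe pairs ligated on the transcripts on a grid of barcoded spots. Mice were of 3 ages, with 2 biological replicates each: P21 mice were at postnatal day 21, adult mice were between 12 and 15 weeks old, and aged mice had reached 28 months. P21 and adult sections were mounted on Visium v1 slides. Aged sections were stained on glass and transferred to Visium v2 slides with the CytAssist instrument, so slide version, probe design and transfer cannot be told apart from age in aged vs. adult.

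The choroid plexus is a frond of vascular stroma covered by a single epithelium that hangs in the brain ventricles. Its epithelium secretes cerebrospinal fluid, driven by ion pumps and channels, and releases carrier proteins, vitamins and signals into it. Ttr encodes transthyretin, the carrier of thyroid hormone and, through retinol-binding protein, of retinol. Folr1 encodes the folate receptor that moves folate into the fluid. Clic6 (a chloride intracellular channel protein), Kcnj13 (the inward rectifier channel Kir7.1) and Kcne2 (a potassium channel beta subunit) belong to ion handling. Prlr is the prolactin receptor and Kl the membrane protein klotho, the co-receptor of the hormone Fgf23. Enpp2 (autotaxin, which makes lysophosphatidic acid), Ecrg4 (a secreted peptide precursor) and Sostdc1 (a secreted antagonist of BMP and Wnt signals) are released by the cell. Some of them have a second home in the brain, as with Enpp2 in oligodendrocytes and Prlr in hypothalamic neurons.

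Promoters, taken as 250 bases before to 50 bases after a start, were read for 5 members in the RefSeq table (GRCm38.p6), with 8 starts in all. Ttr was left out of this search. The motif TAATCC, the core bound by the plexus factor Otx2, was searched on both strands and occurred in 0 of these 8 windows, against 7.06% of all 32851 promoters of that length. That says only that these letters are not in these windows. The promoters of Kl (chr5:150952357-150952656, plus strand) and Kcnj13 (chr1:87394680-87394979, minus strand) are shown for the pair with the lowest P21 estimates in plexus spots (−1.05 and −1.04 on the log2 scale, not past the test with 5 sections), chosen after these values were seen. Capitals mark each CG, of which Kl holds 19 and Kcnj13 holds 5, against a median of 7 over all promoters.
Kl: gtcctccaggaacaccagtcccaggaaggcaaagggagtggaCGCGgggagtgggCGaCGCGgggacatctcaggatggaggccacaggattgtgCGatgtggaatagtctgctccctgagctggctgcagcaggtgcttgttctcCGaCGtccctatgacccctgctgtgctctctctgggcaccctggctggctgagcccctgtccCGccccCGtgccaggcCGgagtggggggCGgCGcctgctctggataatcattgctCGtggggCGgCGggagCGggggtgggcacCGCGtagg
Kcnj13: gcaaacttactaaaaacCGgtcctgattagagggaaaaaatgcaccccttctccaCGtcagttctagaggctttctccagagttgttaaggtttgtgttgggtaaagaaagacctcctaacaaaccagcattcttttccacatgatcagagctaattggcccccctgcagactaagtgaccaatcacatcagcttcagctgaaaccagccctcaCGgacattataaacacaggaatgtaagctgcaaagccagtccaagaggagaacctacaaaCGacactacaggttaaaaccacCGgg

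To measure the members without choosing spots by them, a spot was called a plexus spot from 17 other genes of the plexus epithelium (among them Otx2, Aqp1, Cldn2 and F5) when these summed to at least 500 CPM, with the members' UMIs left out of the total, and at least 4 of them had a UMI. UMIs are the unique molecules counted, and CPM is a gene's UMIs over all UMIs of the spots in question, scaled to a total of 1000000. This gave 165 plexus spots of 20336, namely 23 and 13 at P21, 23 and 9 in adult and 64 and 33 in aged sections. All sections but one carried 13 or more. Adult section 2 had 9, fewer than the minimum of 10 set for the tests of age within plexus spots. Those tests therefore used 5 sections with 1 adult section, which is assumed to vary like the others. For the members, the same tests over all 6 sections are given beside them. Total UMIs per section ranged from 42422997 to 106783660. Plexus spots held 305996 to 1422508 UMIs per section, and median UMIs per plexus spot ranged from 15225 to 43666. Spot positions share barcodes across sections because the arrays carry the same barcodes: pairs within the P21 and adult sections shared 2607 to 2992, the aged pair 3363, and aged with P21 or adult sections 0.

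**Figure D1:**
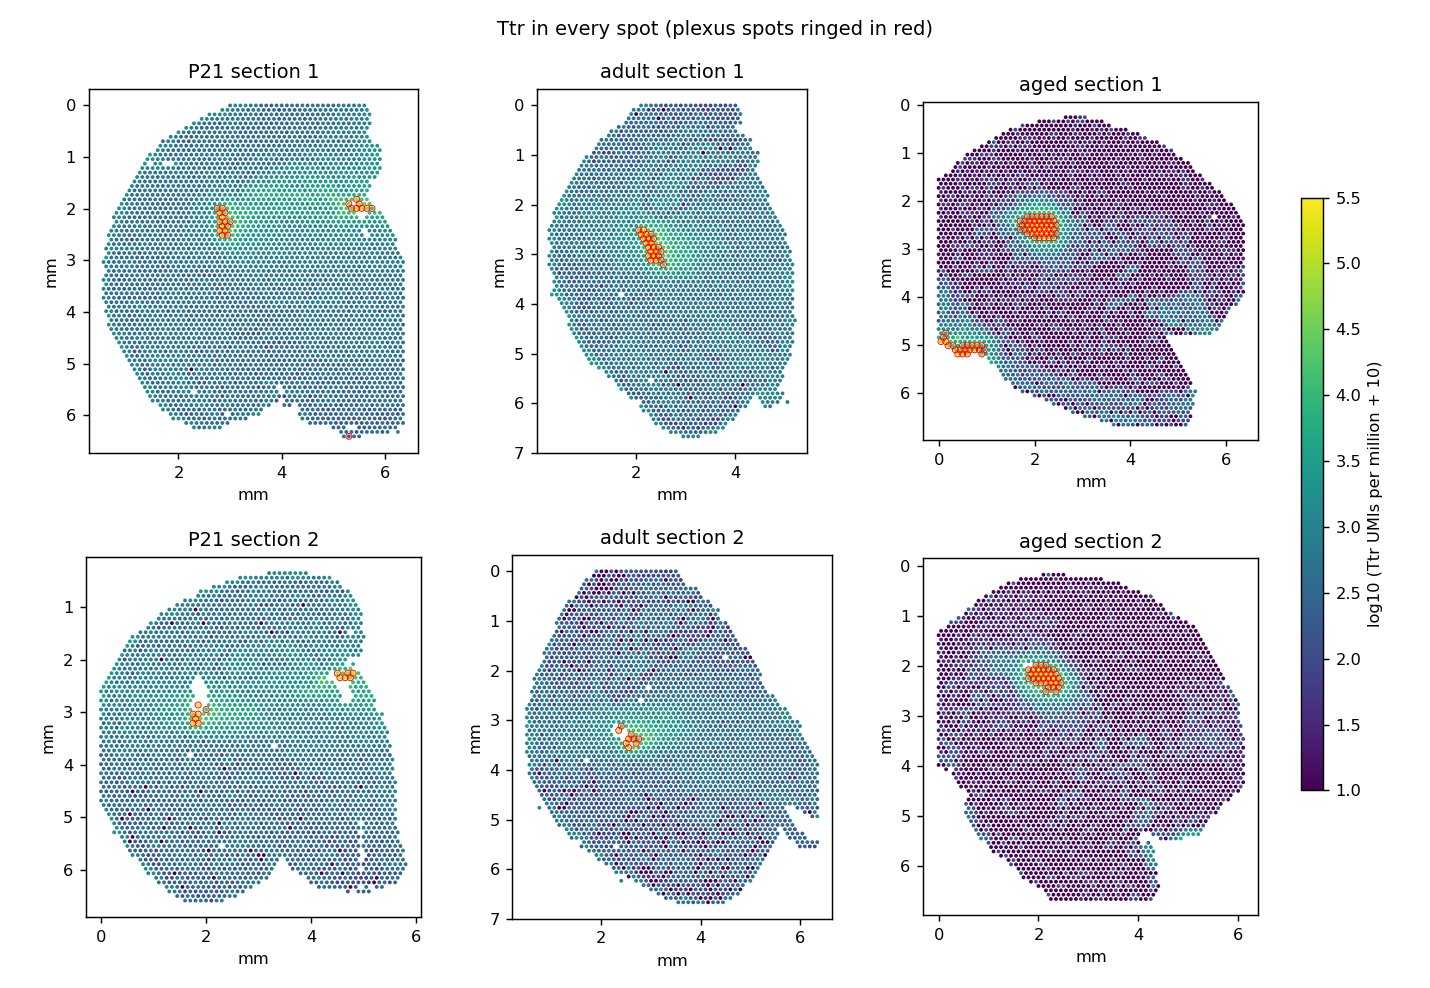
Ttr in every spot of the 6 sections, as log10 of CPM plus 10 (colour), against position in mm; plexus spots, chosen without Ttr, are ringed in red. Ttr peaked at the ringed spots in all 6 sections, except at a lone ringed spot of P21 section 1 (213 CPM). The tissue away from the ringed spots was darker in both aged sections (41.2 and 28.7 CPM over 500 µm away) than in the P21 and adult sections (363 to 775).

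Members lie on 7 chromosomes (GRCm38, GENCODE vM21). Ttr is on chromosome 18 and Folr1 (ENSMUSG00000001827) at chr7:101858331-101870788 on the minus strand. Kl is at chr5:150952607-150993817 and Sostdc1 at chr12:36314139-36318452, both on the plus strand. Kcnj13 and Ecrg4 (1500015O10Rik in the annotation) are both on chromosome 1, where Kcnj13 (chr1:87386363-87394729, minus strand) lies across from Gigyf2 on the other strand. Clic6 (chr16:92485736-92541243) starts 188 kb after the end of Kcne2 (chr16:92292389-92298129). Enpp2 (chr15:54838901-54952892) and Prlr (chr15:10177238-10349180) share chromosome 15.

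The label fitted the spots. All 10 members were higher in plexus spots than in spots over 500 µm from any plexus spot (edgeR quasi-likelihood test, section as block), where 39.5% of 14303 genes differed in either direction and 20.8% were higher. The difference on the log2 scale ran from 5.25 ± 0.24 (SE) for Prlr and 5.49 ± 0.26 for Enpp2 to 8.25 ± 0.43 for Folr1, 8.33 ± 0.48 for Ecrg4 and 9.19 ± 0.86 for Ttr, with adjusted p of at most 2.8e-06. Members together took 11.9% to 18.7% of all UMIs in plexus spots. Across the plexus spots of a section, each member's level followed the summed level of the 17 other genes, with Pearson r from 0.587 (Kcne2, P21 section 2, 13 spots) to 0.983 (Ttr, adult section 1, 23 spots). These r are descriptions over spots that share a section and its depth.

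Plexus spots held markers of other cells than the epithelium, and the summed levels of several such lists differed between ages. The share of each cell type in a spot was not measured. The summed level of 8 stromal genes (collagens, Dcn and others) was 834 and 928 CPM in P21 plexus spots, 159 and 224 in adult and 153 and 77.6 in aged ones. The 6 medial habenula genes summed to 408 and 337 at P21, 50.7 and 72.7 in adult and 226 and 127 in aged plexus spots, and of these Gpr151 and Chrna3 were at 0 in both adult sections and in aged section 2. Neuronal genes summed to 2258 to 3371 in P21 and adult and to 589 and 1435 in aged plexus spots. Red cell genes summed to 2372 and 6915 at P21 against 78.8 to 658 at the other ages. The 17 epithelial genes themselves summed to 1791 and 2572 at P21, 2856 and 2861 in adult and 3584 and 3544 in aged plexus spots. These genes also chose the spots, so that choice bears on their sum. Macrophage genes stayed at or below 58.8 in every section, and ependymal genes lay between 602 and 1134. Oligodendrocyte genes summed to 28624 and 17487 at P21, 15214 and 16918 in adult and 15466 and 21019 in aged plexus spots. Astrocyte genes summed to 1722 to 2411. A lower level in plexus spots can therefore mean fewer plexus cells in the spot or less RNA per cell, which cannot be told apart, and the part of these other cells in the results was not tested.

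Among the carriers, Ttr was high at every age. Ttr held 108036 and 167656 CPM in P21 plexus spots, 137429 and 135673 in adult and 142108 and 169507 in aged ones. The ages overlapped, and the 2 P21 sections spanned nearly the whole range. Folr1 was at 705 and 892 at P21, 779 and 867 in adult and 584 and 654 in aged sections. Both aged sections were below all 4 others, but the difference of −0.29 ± 0.26 on the log2 scale did not pass the test (adjusted p = 0.587).

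Klotho and the prolactin receptor were lowest at P21. Kl was at 149 and 232 CPM in P21 plexus spots, 363 and 382 in adult and 445 and 509 in aged ones, so the 3 ages did not overlap and were ordered P21, adult, aged. Prlr was at 164 and 245 at P21, 381 and 379 in adult and 417 and 380 in aged plexus spots, where adult and aged values met. Among the ion genes, Kcnj13 was at 128 and 242, then 345 and 339, then 399 and 372. Clic6 was at 810 and 1134, then 1472 and 1540, then 1734 and 1556, and Kcne2 at 105 and 176, then 200.4 and 197, then 236 and 196. For these 5 genes both P21 sections lay below all adult and aged sections.

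The 3 secreted factors followed other orders. Sostdc1 was at 409 and 592 CPM in P21 plexus spots, 397 and 421 in adult and 245 and 271 in aged ones, with both aged sections below all others. Ecrg4 was at 1251 and 1892, then 1172 and 1385, then 1246 and 1468, and the ages overlapped. Enpp2 was at 7220.5 and 10859.6 at P21, 9795 and 9047 in adult and 11388 and 12286 in aged sections, where both aged values were above the rest.

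**Figure D2:**
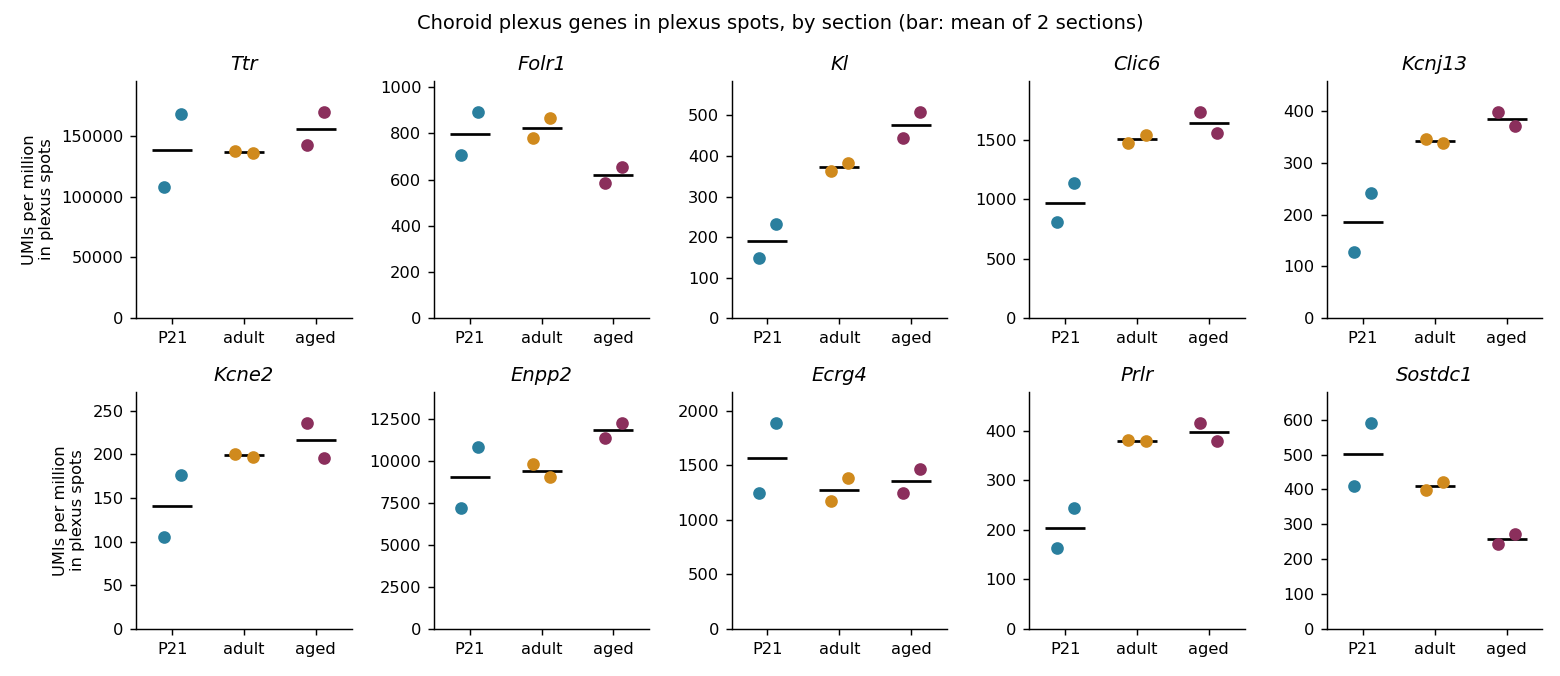
CPM of each member in plexus spots, 1 point per section (2 per age) with the mean of each age as a bar; axes start at 0 and differ between genes. Kl, Clic6, Kcnj13, Kcne2 and Prlr have both P21 points below all others, and Folr1 and Sostdc1 both aged points below all others.

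P21 vs. adult compares the young plexus with the mature one. With adult section 2 left out, 0 of 10 members passed an adjusted p under 0.05 and a fold over 1.5 in edgeR, where 0.353% of 11913 genes did. DESeq2 also called 0, and 5 members had an unadjusted p under 0.05 in edgeR, as had 922 of the 11913 genes. The largest differences on the log2 scale, P21 over adult, were Kl −1.05 ± 0.28 (adjusted p = 0.199), Kcnj13 −1.04 ± 0.31 (0.280) and Prlr −1.004 ± 0.27 (0.186), followed by Kcne2 −0.66 ± 0.29 and Clic6 −0.66 ± 0.27. The estimates of Ttr (−0.04 ± 0.43), Folr1 (−0.02 ± 0.26) and Enpp2 (−0.16 ± 0.33) lay near 0, and those of Ecrg4 (0.37 ± 0.30) and Sostdc1 (0.26 ± 0.27) above it.

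With all 6 sections, Kl (−1.07 ± 0.22, adjusted p = 0.0215), Prlr (−0.99, adjusted p = 0.0252) and Kcnj13 (−1.03, adjusted p = 0.0473) were lower at P21, 3 of 10 members, where 0.483% of genes were called lower and 1.14% in either direction. With adult section 2 but without adult section 1, 0 members passed. With the 5 sections, testing every gene of at least 1 UMI also called Kl, Kcnj13 and Prlr (adjusted p from 0.0107 to 0.0159), and Kcnj13 passed without P21 section 2 (−1.51, adjusted p = 0.0461). The alternatives that brought adult section 2 to 10 or more plexus spots called more members and more genes of all kinds. A panel threshold of 250 CPM (20 spots there) called 5 members and 369 of 11663 genes. The first part of the panel (12 spots) called 5 members and 382 of 11526 genes, and the second (11 spots) 4 members and 131 of 11010 genes. Over 19 or 20 alternatives the adjusted p ran from 9.9e-05 to 0.814 for Kl, from 0.000125 to 0.855 for Prlr and from 0.00053 to 0.9999 for Kcnj13, and every one kept the sign. Scaling to the 17 epithelial genes in place of all UMIs, which moved the median of all genes to 0.54, brought Kl to −0.56 ± 0.51, Kcnj13 to −0.56 ± 0.51 and Prlr to −0.51 ± 0.51 with 0 members called (0.682% of genes), and turned the estimates of Ttr (0.38), Folr1 (0.44) and Enpp2 (0.27) above 0. Relative to that panel, Kl was at 83.0 and 90.2 UMIs per 1000 panel UMIs at P21 and at 124 to 143 at the later ages, while Kcne2, at 55.4 to 70.2 throughout, overlapped.

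Aged vs. adult compares the plexus late in life with the mature one. Again 0 of 10 members were called in plexus spots by edgeR and by DESeq2, where edgeR called 4.37% of 11873 genes, and 1 member had an unadjusted p under 0.05, as had 2212 of the genes. That member was Sostdc1, at −0.59 ± 0.27 (adjusted p = 0.243), and −0.62 ± 0.20 with all 6 sections (adjusted p = 0.0656, 8.83% of genes called). Scaled to the epithelial panel, which moved the median of all genes to −0.34 with 5 sections and −0.36 with 6, its difference was −0.94 ± 0.50 with 5 sections (adjusted p = 0.423, 2.85% of genes called) and −0.98 ± 0.32 with 6, where it passed (adjusted p = 0.0485, 7.29% of genes called). Over its 19 alternatives the sign held and the adjusted p ran from 0.0132 to 0.590. Sostdc1 stood at 68.3 and 76.5 UMIs per 1000 panel UMIs in aged, 139 and 147 in adult and 228 and 230.0 in P21 sections. In CPM the aged sections were also lowest, while P21 and adult values overlapped. Kl was at 0.43 ± 0.28 and the other 8 estimates lay between −0.29 and 0.31, with signs that turned in at least 1 alternative for all of them but Folr1.

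In aged section 1 the plexus spots formed a patch of 42 spots and another of 22. The smaller patch held less of the epithelial panel (1384 against 4175 CPM), and lower Ttr (60062 against 164165), Kl (206 against 509), Prlr (103 against 501) and Sostdc1 (103 against 283). Kcne2 differed less, at 186 against 250. In P21 section 1, a lone plexus spot had the panel at 922 but held Ttr at 213, with Kl and Prlr at 0. Leaving out lone plexus spots changed no call.

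Genes that work with the members were read from lists. At P21, 0 genes passed in plexus spots in the lists for folate (8 tested), thyroid hormone and retinol (9), ion and water transport (14), lysophosphatidic acid (6), klotho and Fgf (5), prolactin signalling (9), BMP and Wnt (10) and secreted plexus proteins (9). In aged plexus spots 2 of 14 ion genes rose, the chloride channel protein Clic5 (5.76 and 6.06 CPM in adult, 25.3 and 36.5 in aged, adjusted p = 0.0301) and the carbonic anhydrase Car14 (146 and 136 against 265 and 276, adjusted p = 0.0405). Stat3, which carries prolactin and cytokine signals, rose from 44.9 and 57.6 to 110.4 and 104.7 (1.29 ± 0.27 on the log2 scale, adjusted p = 0.0156), 1 of 9 in its list, while Prlr itself was at 0.10 ± 0.26. The other 6 lists had 0 calls, with medians from −0.10 (folate) to 0.87 (klotho and Fgf). Over all genes, in either direction, 0.353% of 11913 were called at P21 and 4.37% of 11873 in aged plexus spots. Slide version cannot be told apart from age in the aged calls. Of 16 epithelial panel genes tested, Rdh5, a retinol dehydrogenase, was lower at P21 (68.0 and 91.5 against 191 and 185). Cox8b, a cytochrome oxidase subunit, rose with age (107 and 115 in adult, 283 and 242 in aged). Both belong to the panel that chose the plexus spots, so that choice bears on their levels there. Clic5 in adult rests on few UMIs, as adult plexus spots held 868331 and 329941 UMIs in all.

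Markers of other cells gave more calls in the same spots. At P21 the collagens Col1a1, Col1a2 and Col3a1, the habenula gene Tac2 and all 4 red cell genes were higher. In aged plexus spots Tac1 and 3 of 4 red cell genes were higher, and the neuronal genes Snap25 and Stmn2, the oligodendrocyte gene Opalin and the collagens Col1a1 and Col3a1 were lower. Ependymal, endothelial, macrophage and astrocyte lists had 0 calls in both comparisons.

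Away from the plexus every member was far lower. In spots within 110 µm, Ttr was at 12.1% and 8.65% of its plexus level at P21, 8.84% and 9.92% in adult (the latter from 15 spots) and 5.68% and 6.65% in aged sections, so both aged sections were already below all others. In the ring up to 210 µm it was at 2.35% and 1.90% in aged sections and at 3.87% or more in the other 4. At 310 to 500 µm Ttr was at 1.45% to 2.09% of its plexus level in the 4 P21 and adult sections and at 0.236% and 0.127% in the aged ones. At over 1000 µm it was at 0.576% and 0.329% at P21, 0.353% and 0.216% in adult and 0.0259% and 0.0143% in aged sections.

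Over 500 µm away, Ttr was at 775 and 716 CPM at P21, 555 and 363 in adult and 41.2 and 28.7 in aged sections. Folr1 was at 5.67 and 5.98, then 4.16 and 2.55, then 0.534 and 1.11, and Ecrg4 at 10.47 and 9.24, then 7.03 and 5.29, then 1.04 and 1.93. For these 3 genes the 3 ages did not overlap, with P21 highest and aged lowest. Enpp2 had the same order, at 316 and 312, then 273 and 252, then 155 and 172. So had Sostdc1, at 7.32 and 8.33, then 3.99 and 4.77, then 2.65 and 2.81. Kcnj13 was at 1.30 and 1.40 at P21, 2.98 and 1.45 in adult and 0.734 and 0.841 in aged spots. Clic6 was at 10.3 to 11.8 in all 6 sections and Prlr at 7.56 to 11.2, but their rings differed. From 500 to 1000 µm Clic6 was at 18.1 and 15.8 in adult and 9.77 and 6.88 in aged spots, while beyond 1000 µm it was at 8.67 and 9.48 in adult and 12.3 and 10.9 in aged ones. Prlr was at 6.99 and 5.09 in adult and 4.15 and 2.55 in aged spots from 500 to 1000 µm, and adult and aged values overlapped beyond. Beyond 1000 µm neither passed in aged vs. adult by edgeR (Clic6 0.29 ± 0.13, adjusted p = 0.0964; Prlr 0.03 ± 0.16, adjusted p = 0.879), and the ring from 500 to 1000 µm was not tested alone.

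**Figure D3:**
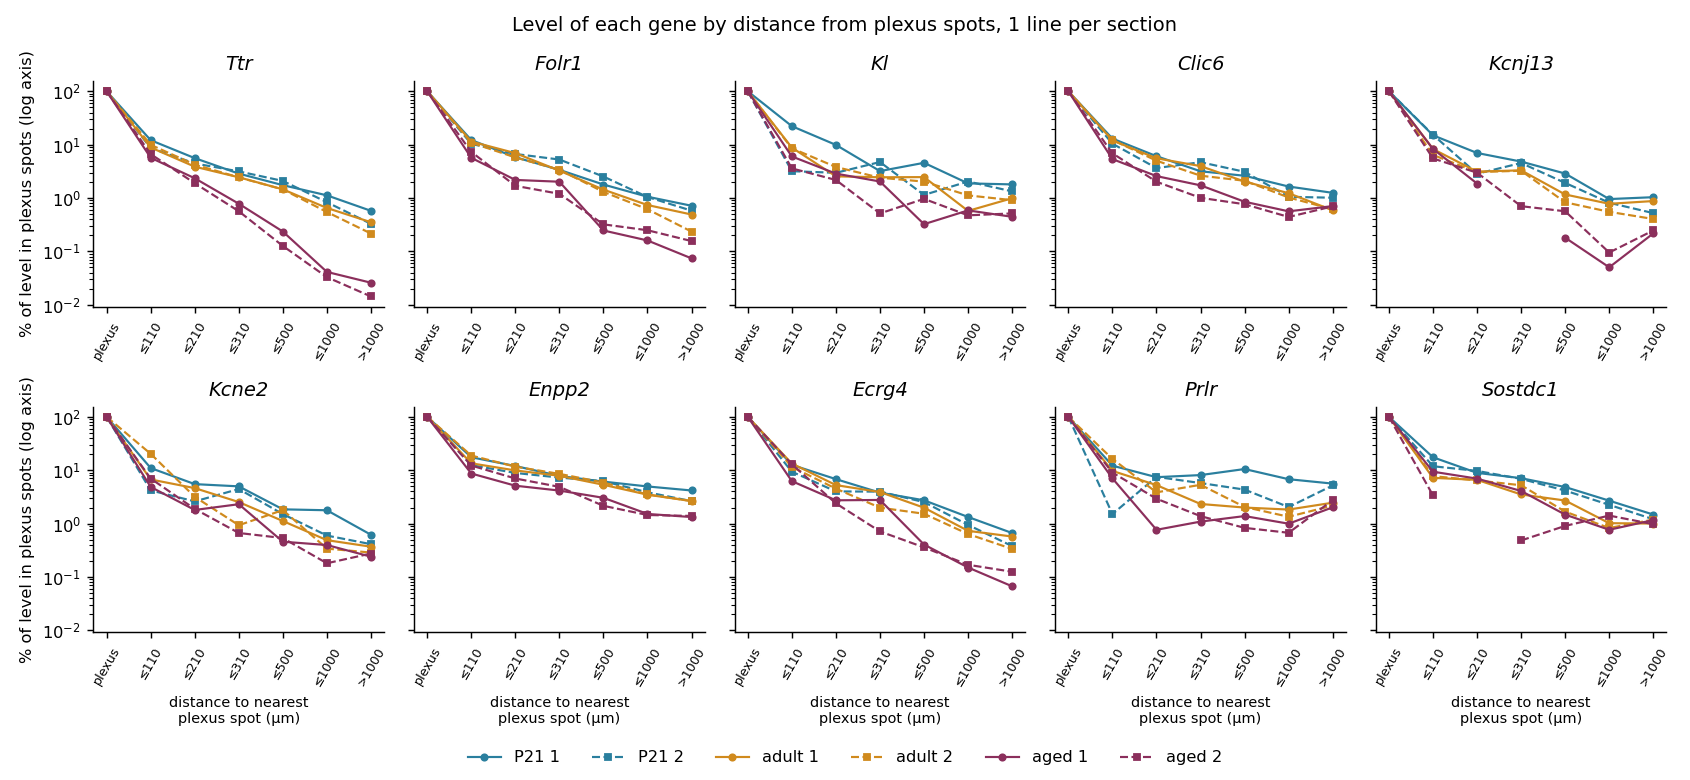
Level of each member as a percentage of its level in plexus spots (log axis) against the distance to the nearest plexus spot in µm, 1 line per section, coloured by age. The aged lines of Ttr, Folr1 and Enpp2 lie below all others at every distance and those of Ecrg4 and Kcnj13 beyond 310 µm. At over 1000 µm the aged lines of Prlr meet the adult lines, and those of Clic6 lie above them. Gaps are the 2 rings with 0 UMIs (Kcnj13 in aged section 1 and Sostdc1 in aged section 2), which allow up to 2.73 and 5.55 CPM.

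In aged vs. adult, 7 of 10 members were lower over 500 µm from the plexus, where 25.5% of 17494 genes were called and 4.87% were lower (edgeR, 6 sections). The differences on the log2 scale were Ttr −3.80 ± 0.22 (adjusted p = 1.13e-05), Ecrg4 −2.12 ± 0.24, Folr1 −2.09 ± 0.31, Kcnj13 −1.57 ± 0.30, Sostdc1 −0.77 ± 0.15, Enpp2 −0.77 ± 0.07 and Kl −0.65 ± 0.18. In linear terms mean Ttr was 13.1-fold lower, Ecrg4 4.15-fold and Folr1 4.09-fold. Kcne2 (−0.33 ± 0.28), Prlr (−0.07 ± 0.13) and Clic6 (0.00 ± 0.11) did not pass. Kl lost its call without aged section 1 (−0.54, adjusted p = 0.0554), without scaling beyond total UMIs (−0.56) and with the plexus threshold at 250 (−0.58), and the calls of the other 6 held in all 15 alternatives. DESeq2 called 7 as well. The epithelial panel, also counted there, fell from 20.5 and 17.4 CPM in adult to 12.3 and 15.8 in aged sections. The panel set which spots were far, so its step there is not set against that of the members.

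Markers of other cells moved with these differences. Over 500 µm from the plexus, all 8 stromal genes were lower in aged sections (58.5 and 78.4 CPM in sum in adult, 32.8 and 35.4 in aged). So were 6 of 8 oligodendrocyte genes (11202 and 11266 against 6752 and 6916) and 8 of 16 genes of the epithelial panel, which also set the far spots. Neuronal genes summed to 6656 to 6917 in adult and 6252 to 6304 in aged sections, and astrocyte genes to 3113 to 3269 and 3239 to 3476. Their part in the members' difference was not tested, and slide version cannot be told apart from age here.

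In P21 vs. adult, 2 of 10 members were higher over 500 µm away, where 7.76% of 17494 genes were called and 5.42% were higher. Sostdc1 was at 7.32 and 8.33 CPM at P21 against 3.99 and 4.77 in adult sections (0.83 ± 0.15, adjusted p = 0.00388), and Ttr differed by 0.70 ± 0.20 (adjusted p = 0.032). Ttr lost its call without either P21 section or without adult section 2, with adjusted p from 0.0985 to 0.175, with the plexus threshold at 250 CPM (0.67, adjusted p = 0.0737) and by DESeq2 (adjusted p = 0.130). The DESeq2 fit called Folr1 (adjusted p = 0.0348) and Ecrg4 (adjusted p = 0.0186) higher. Beyond 1000 µm 0 members were called, with Sostdc1 at 0.55 and Ttr at 0.61. Folr1 (0.80 ± 0.28, adjusted p = 0.0683) and Ecrg4 (0.68 ± 0.22, adjusted p = 0.0523) were close to the threshold. Oligodendrocyte genes summed to 23163 and 24473 at P21 against 11202 and 11266 in adult far spots, ependymal genes to 71.6 and 75.9 against 45.9 and 43.6, and their part was not tested.

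**Figure D4:**
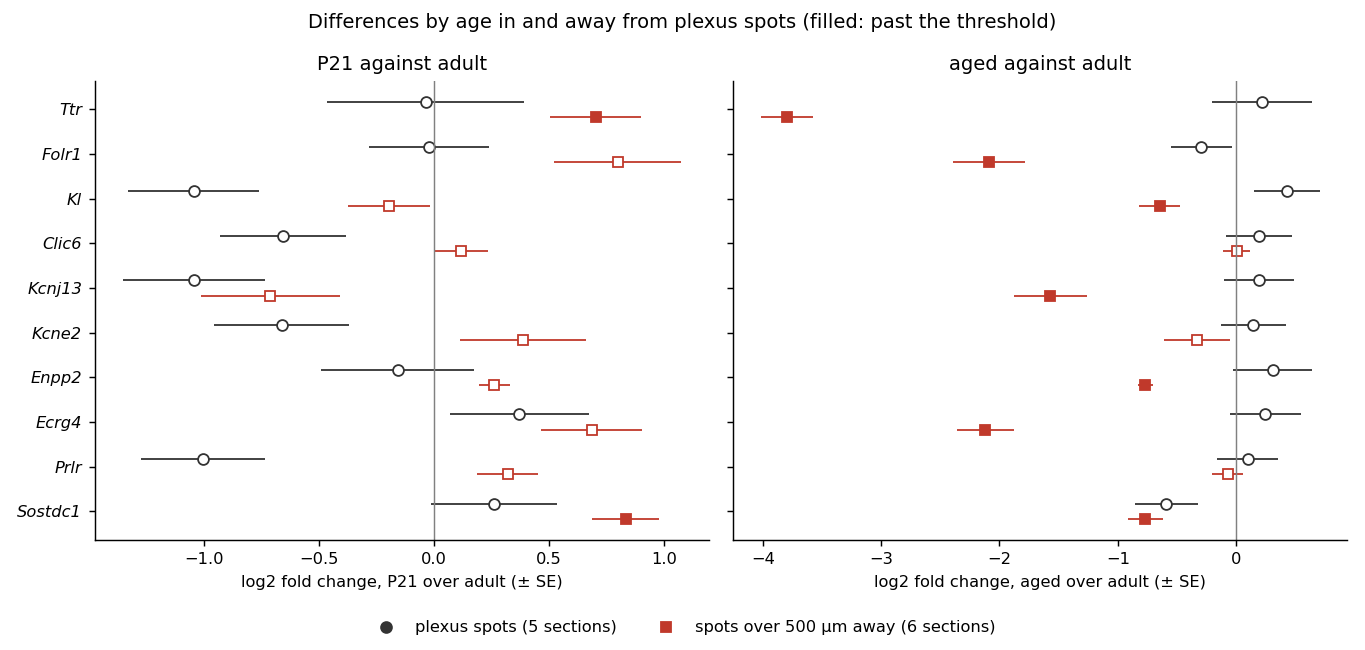
log2 fold change of each member over adult (± SE) in plexus spots (circles, 5 sections) and in spots over 500 µm away (squares, 6 sections), for P21 (left) and aged (right); filled marks passed an adjusted p under 0.05 and a fold over 1.5. In aged vs. adult 7 squares are filled and lie left of 0 while 0 circles are filled; in P21 vs. adult the squares of Ttr and Sostdc1 are filled.

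Whether the far and plexus levels changed by different amounts was tested as the term of zone by age, with section as block. From adult to aged, the ratio of far to plexus fell for 4 of 10 members (2.77% of 12456 genes called, 0.482% lower), namely Ttr (−3.84 ± 0.37, adjusted p = 0.000274), Ecrg4 (−2.17 ± 0.32), Kcnj13 (−1.61 ± 0.29) and Folr1 (−1.61 ± 0.28). These calls depend on adult section 1, since without it the adult side rests on the section of 9 plexus spots. The estimates were then Ttr −3.56, Ecrg4 −1.87, Folr1 −1.19 and Kcnj13 −1.06. With 1 adult section left, that fit cannot judge whether these members differ less than other genes. Without adult section 2 Ecrg4 lost its call at −2.56 (adjusted p = 0.0661). Clic6 (−0.01 ± 0.21), Prlr (−0.04 ± 0.22) and Sostdc1 (0.03 ± 0.27) had estimates near 0. From adult to P21 all 10 estimates of this ratio were above 0, from 0.42 for Kcnj13 to 1.37 ± 0.23 for Prlr (adjusted p = 0.0607), and 0 were called (0.0241% of genes), with 7 at an unadjusted p under 0.05, as were 862 of the 12456 genes. Leaving out either aged section put Ttr at 0.83, Folr1 at 0.96, Kl at 0.97 and Clic6 at 0.89. Prlr was then at 1.38 or 1.39 and Sostdc1 at 0.71 or 0.72.

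Within 200 µm of the plexus the same term gave 0 calls among members and among all 12456 genes in both comparisons (0% called). At an unadjusted p under 0.05 there were 3 members and 824 genes at P21, and 5 members and 820 genes in aged sections. All 10 aged estimates were below 0, from −0.05 ± 0.43 for Kcnj13 to −1.18 ± 0.52 for Kcne2, with Clic6 at −0.98 ± 0.24 (adjusted p = 0.663). Without aged section 2, Clic6 was at −1.14 and Enpp2 at −0.96. Clic6 in the ring up to 110 µm was at 5.37% and 6.89% of its plexus level in aged sections and at 10.4% or more in the other 4.

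The same spread can be read from where each gene's UMIs lay. Plexus spots, 0.276% to 1.74% of all spots, held 51.7% and 53.9% of Ttr UMIs at P21, 73.0% and 61.1% in adult and 93.2% and 94.3% in aged sections (95% Wilson intervals at most 0.706 points wide, for counting error only). Among far spots, 93.3% to 99.97% of P21 and adult spots had a Ttr UMI, and 45.9% and 43.6% in the aged ones. Thinned to 5000 UMIs per spot, which left out 106 P21, 107 adult and 107 aged spots, the shares were 92.6% and 89.2% at P21, 88.9% and 72.2% in adult and 19.6% and 14.1% in aged sections. For Ecrg4, plexus spots held 47.2% and 50.7%, then 64.8% and 55.0%, then 88.8% and 83.1% of UMIs. For Prlr they held 15.4% and 13.7% at P21, 40.6% and 22.9% in adult and 49.1% and 29.3% in aged sections, so most Prlr UMIs lay outside them throughout. For Enpp2 they held 17.3% to 52.8%. Plexus area differed between sections, and these shares move with it.

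Several members had a pattern of their own in far spots. Far spots were split at the 80th percentile of the oligodendrocyte genes, which are no members. Enpp2 was at 364 to 599 CPM in the oligodendrocyte-rich spots and 125 to 254.5 in the others, higher in 6 of 6 sections (1.39 ± 0.06 on the log2 scale, adjusted p = 5.26e-07, 17.1% of 14451 genes called). Enpp2 was lower in aged than in adult sections in both kinds of spot, at 364 and 386 against 526 and 527 in the rich ones and at 125 and 146 against 211 and 180.2 in the others. Ttr also passed (0.63 ± 0.17, adjusted p = 0.0114) but was lower in the rich spots of P21 section 1 (674 against 802), and its call was lost in 4 of 8 alternatives (0.48 to 0.62). Kl (−0.50 ± 0.14, adjusted p = 0.015) and Sostdc1 (−0.41 ± 0.15, adjusted p = 0.0474) had folds under 1.5 with the opposite sign.

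Likeness to other genes was taken as the mean over 6 sections of Pearson r across far spots, among 11565 or 11566 genes. Points share a section and its depth, so these r are descriptions. Among the genes most like Enpp2 were the ferritin gene Fth1 (mean r 0.534) and the myelin gene Cnp (0.529). Prlr was most like Baiap3 (0.317, from 0.268 to 0.408), AW551984 (0.282) and Gpr165 (0.281). Clic6 was most like Baiap3 (0.222, from 0.021 to 0.403), Rgs9 (0.219, from 0.118 to 0.383) and the enkephalin gene Penk (0.209, from 0.081 to 0.370). Kcnj13 was most like Fmod (0.273), a collagen-binding proteoglycan, Slc22a6 (0.244), an organic anion transporter on the stromal list, and Ptgds (0.215), prostaglandin D synthase. Only 1.51% to 4.40% of the far spots of a section had a Kcnj13 UMI, so its r rest on few spots. Ttr was most like Mt1 (0.285, from 0.190 to 0.408), Cst3 (0.256, from 0.189 to 0.399) and Apoe (0.254, from 0.111 to 0.404), genes of glia. Folr1, Kl, Kcne2, Ecrg4 and Sostdc1 had no gene at 0.2 or above.

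Ttr ranked between 9 and 35 among the 17185 to 19363 genes of a section by Moran's I, the deposited score of spatial clustering, with values from 0.597 to 0.787. Enpp2 ranked from 107 to 233, Ecrg4 from 113 to 519 and Kl from 506 to 3806, with Kl lowest in P21 section 2 (Moran's I 0.0394) and adult section 2 (0.0966), the sections with the fewest plexus spots.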

How the data were processed

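Spatial counts were analysed for 6 sections, 2 per age. Per the file headers, the authors made the deposited counts (UMIs per gene and spot, not normalized) with Space Ranger 2.0.0 for P21 and adult and 3.1.1 for aged sections, while the submitters' processing notes name Space Ranger 2.1.0, Seurat 5.1.0 and mm10. The authors also deposited Moran's I, a score of spatial clustering per gene, which was used as given.

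Spots with under 250 genes or 500 UMIs were removed. Distances were taken from array positions, at 100 µm between spots. Near spots lay within 200 µm of a plexus spot and far spots over 500 µm away. UMIs were summed per section and zone and tested with edgeR 4.0.16 (quasi-likelihood, TMM, R 4.3.3), with Benjamini-Hochberg adjustment over all genes tested. A call needed an adjusted p under 0.05 and a fold over 1.5. Tests of age within plexus spots needed at least 10 plexus spots per section. Tests of plexus against far spots and of the near- and far-to-plexus ratios used all 6 sections, adult section 2 included. DESeq2 1.42.0, other thresholds and each section left out were alternatives. Levels are CPM over the zone of a section. Tables were made with Python 3.11.15.

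On simulated data, 34% of 2-fold changes were called in plexus spots and 93% in far spots (aged vs. adult, 11480 and 16020 genes). Replicates are labelled as biological, and 2 sections per age limit the precision. The members and lists were chosen with earlier results of these data known. Named genes are the 10 members, list genes called in plexus spots, and up to 3 genes most like a member at a mean r of at least 0.2; genes named beyond these were chosen after their values were seen. Some genes that these rules name are not reported here.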

Additional observations from a re-analysis of the deposited data

Results flagged for a closer look

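The far-to-plexus ratio changed from adult to aged sections by a test of the difference itself for 4 members, on the log2 scale Ttr (−3.84), Ecrg4 (−2.17), Kcnj13 (−1.61) and Folr1 (−1.61). These calls depend on adult section 1, and without it, with 1 adult section left, the estimates were −3.56, −1.87, −1.06 and −1.19. Slide version, probe design and age cannot be told apart in this comparison.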

How the results depend on the processing

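No direction that passed a test reversed. Of 1210 values of single members under alternatives, 1121 kept their side of the threshold, 19 lost it and 70 gained it. With 9 plexus spots in adult section 2 and 2 sections per age, plexus counts depend most on the choice of spots and sections, and leaving out adult section 1 could not be run with 5 sections because no adult section remains.

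Members called in plexus spots at P21 (0) became 3 with every gene of at least 1 UMI, 5 with the plexus threshold at 250, 5 and 4 with the first and second part of the panel, 3 with all 6 sections, and 0 to 1 leaving out a section. All of these but the first and last include adult section 2. In aged plexus spots (0) it was 1 with either part of the panel and 1 with all 6 sections on panel UMIs. Far from the plexus at P21 (2) it was 0 beyond 1000 µm and 1 to 4 leaving out a section. For the far-to-plexus ratio it was 4 at a threshold of 250 and 0 to 6 leaving out a section at P21 (0), and 0 to 6 in aged sections (4). For the near ratio in aged sections (0) it was 0 to 2, and for oligodendrocyte-rich spots (2) it was 1 at the 90th percentile and 1 to 4.

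Over all genes, plexus calls at P21 (42) became 20 by DESeq2, 164 with every gene of at least 1 UMI, 80 on panel UMIs, 26 for genes also in 10% of all spots, 74 with only 2 ages, 369 and 120 at thresholds of 250 and 1000, 382 and 131 with the panel parts, 128 with 6 sections, 306 with 6 on panel UMIs, 16 with 6 but adult section 1, and 18 to 104 leaving out a section. In aged plexus spots (519) they became 74, 917 and 333 by the first 3 of these, 792 with only 2 ages, 1013 and 1390 by threshold, 1230 and 982 by panel part, 987 and 788 with 6 sections, 27 with 6 but adult section 1, and 424 to 757. Far calls at P21 (1357) were 831 to 1341. Near-ratio calls were 3 at a threshold of 250 and 0 to 29 at P21 (0), and 0 to 105 in aged sections (0). Far-ratio calls at P21 (3) were 110 and 6 by threshold and 0 to 140, and in aged sections (345) 642 at 250 and 0 to 1125.

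Same-numbered sections deviated together with correlations of 0.042 to 0.11 in plexus and −0.18 to 0.033 in far spots, so the numbers were not taken to pair sections. With the replicate number as a block, plexus calls at P21 were 2 members (Kl −1.25, Kcnj13 −1.24) and 100 genes. The block changed no member count in far spots (2 and 7) or aged plexus spots (0), and swapped adult numbers, chosen after seeing the data, gave 7 members and 4376 genes far from the aged plexus. The 6-section fits were also chosen after seeing the data.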
